A study of Mus musculus with 35 samples.

Results

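Cerebellar microglia that had developed without the cytokine IL-34 were compared with wild-type cerebellar microglia at 9 weeks of age. The 4 libraries of this comparison, of 35 in the series, were all those labelled as 9-week cerebellum with either Il34 genotype, and all 9466 genes of their table were described. The 2 mutant libraries came from Il34Lacz/Lacz mice (LacZ below), which are homozygous for an allele that places the LacZ reporter in Il34. The 2 wild-type libraries came from Il34wt/wt mice. The LacZ allele is carried by every cell of the animal from conception, so neither the cell of origin of IL-34 nor the time of its loss was varied. The series' design text calls the libraries of a group biological replicates, and the labels give neither strain nor sex. Microglia were sorted by flow cytometry and their RNA was sequenced with an ultra-low-input protocol. For comparison, the text also uses forebrain microglia of the same Il34 genotypes at 9 weeks (3 LacZ and 3 wild-type libraries), and 9-week cerebellar microglia of mice lacking the other ligand in neural-lineage cells (3 NesCreCsf1fl/fl libraries against 3 Csf1fl/fl libraries).

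Microglia, the resident macrophages of brain tissue, survive only while their receptor tyrosine kinase CSF1R is engaged. CSF1R binds a pair of ligands, CSF1 and IL-34. In the adult brain IL-34 is made mainly by forebrain neurons, whereas CSF1 is the more prominent ligand in the cerebellum and white matter. The comparison asks which transcripts of cerebellar microglia depend on the ligand that is less prominent there.

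The deposited values are normalised read counts, that is, whole reads divided by 1 factor per library with a constant of 0.1 added. The reads that lie behind them in the genes of the table numbered 539339 and 508182 in LacZ 1 and LacZ 2, against 901522 and 659179 in wild type 1 and wild type 2. The cells carried the transcripts of microglia: the purinergic receptor gene P2ry12 was at 4167 and 2661 normalised read counts in LacZ and at 3692 and 3328 in wild type. Il34 itself was not analysed here in this table, so the deleted gene could not check the labels. Each listed gene exceeded 10 throughout 1 genotype or both, and 569 genes met that floor through LacZ alone and 1053 through wild type alone. By that definition those genes had a library at or below the floor in the other genotype, and they are listed only through the genotype above it.

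The LacZ 1 library stood apart. It had 48 genes at 0 reads, whereas the other libraries had 2 or 3. Across genes, the Pearson correlation of log2 values was 0.807 between LacZ 1 and LacZ 2, the lowest of the 6 pairs, and 0.914 between the wild-type libraries. On the log2 scale, LacZ 1 and LacZ 2 differed from each other by 1 or more in 1952 genes (20.6%), and the wild-type libraries did so in 705 genes (7.45%). The LacZ and wild-type means differed by that much in 523 genes (5.53%). The SD over genes of the difference between the group means was 0.52 log2 units, and the spread within groups alone gives 0.55.

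With limma on log2(value + 1) and Benjamini-Hochberg adjustment over the table, 2 of 9466 genes (0.0211%) passed an adjusted p of 0.05, and both were higher in LacZ. They are Ttr and Cd209a, and both met the floor of the table through the LacZ libraries alone. No gene passed in the lower direction with limma, the only test run. At an unadjusted p under 0.05 there were 144 higher genes (1.52%) and 72 lower genes (0.761%). Both LacZ libraries lay above both wild-type libraries in 1677 genes (17.7%) and below them in 1194 genes (12.6%), and 51.6% of all genes had a positive log2 change. Without LacZ 2 the count past the test was 344, of which 306 were lower, with LacZ 1 as the lone mutant. It was 5 without LacZ 1 and 5 without wild type 2.

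**Figure D1:**
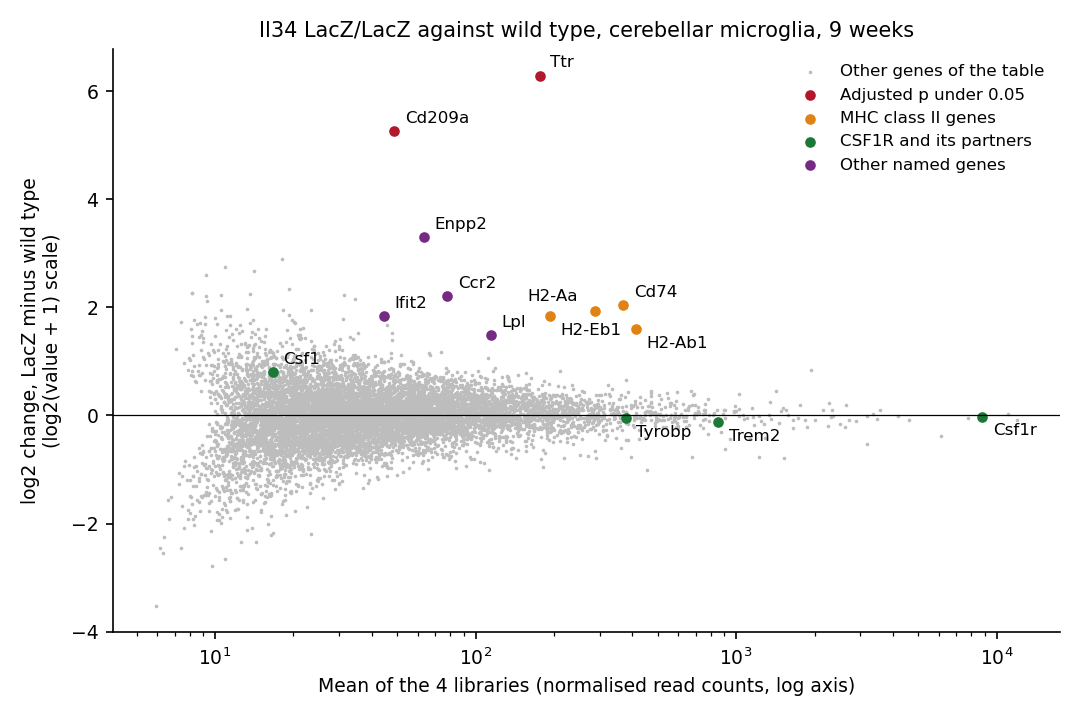
Each point is 1 of the 9466 genes, with its mean over the 4 libraries in normalised read counts on a log x axis and its log2 change (LacZ minus wild type) on the y axis. Ttr (6.28) and Cd209a (5.26), in red, are the genes past the test, the MHC class II genes lie between 1.60 and 2.04, and Csf1r lies at -0.02.

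Ttr encodes transthyretin, a carrier of thyroid hormone that the brain makes in the epithelium of the choroid plexus (chromosome 18, 20665280 to 20674321, plus strand, GRCm38). It was at 392.9 and 306.2 normalised read counts in the LacZ libraries and at 2.61 and 4.53 in the wild-type libraries. Both LacZ libraries were high and both wild-type libraries were close to nothing. The reads behind these values were 259 and 216 in LacZ and 3 and 4 in wild type. Ttr rose by 6.28 ± 0.41 (SE) on the log2 scale, with limma's adjusted p at 9.44e-05. The ratio of the summed reads per unit of depth was 104 (95% exact interval 50.3 to 261, counting error only).

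Enpp2, which encodes the secreted enzyme autotaxin and is also abundant in choroid plexus epithelium, was at 189.7 and 45.4 in LacZ and at 5.95 and 12.3 in wild type. The groups did not overlap, but LacZ 1 was far above LacZ 2. Its log2 change was 3.29 ± 0.64 and did not pass the test (adjusted p = 0.795). The log2 change of Enpp2 was 4.31 without LacZ 2, with LacZ 1 as the lone mutant, and 2.27 without LacZ 1. Of 27 choroid plexus genes, a list drawn up after Ttr was seen, 4 had a row in the table. The other two were Prlr, the prolactin receptor, at 13.8 and 100.7 in LacZ and 35.2 and 56.6 in wild type, and the cation channel gene Trpm3, at 10.7 and 42.6 in LacZ and 21.8 and 12.3 in wild type. For Prlr and Trpm3 the groups overlapped. The summed level of the 4 genes, Ttr included, was 607 and 495 in LacZ and 65.5 and 85.8 in wild type. Ttr and Enpp2, which carry most of it in LacZ, met the floor through LacZ alone, so the sum is no independent evidence. Its part in the Ttr result was not tested.

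Ttr also varied within genotypes in the other 9-week tables. In the Il34 forebrain it was at 196.6, 383.1 and 73.5 in LacZ and at 37.1, 1.04 and 96.2 in wild type, so that the groups overlapped. In the Csf1 cerebellum it was at 339.1, 0.1 and 977.9 in NesCreCsf1fl/fl libraries, of which the second held no read, and at 182.9, 190.1 and 276.5 in Csf1fl/fl controls. Wild-type cerebellum of the Il34 table was therefore far below the cerebellar controls of the Csf1 table, although levels in separately normalised tables were not tested. Enpp2 was at 94.6, 3.16 and 230.7 in NesCreCsf1fl/fl and at 89.3, 43.0 and 83.7 in Csf1fl/fl, and the library without Ttr reads had the lowest Enpp2 value. In the Il34 forebrain Enpp2 was at 104.1, 263.8 and 62.8 in LacZ and at 33.0, 5.75 and 37.4 in wild type, without overlap. Its forebrain log2 change of 2.55 ± 0.47 passed the test (limma's adjusted p = 0.0148). Within each genotype of the Il34 forebrain and cerebellum, and in the NesCreCsf1fl/fl libraries, Enpp2 had the same order as Ttr. In the Csf1fl/fl controls it did not.

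Cd209a, a C-type lectin of the DC-SIGN family that marks dendritic cells derived from monocytes (chromosome 8, 3743397 to 3748984, minus strand), was the other gene that rose. It was at 74.4 and 117.7 in LacZ and at 1.77 and 1.21 in wild type. Behind these values were 49 and 83 reads in LacZ and 2 reads and 1 read in wild type. The log2 change was 5.26 ± 0.58 with an adjusted p of 0.0103, and the ratio of summed reads was 67.7 (95% exact interval 22.7 to 332). Scaling to library totals gave 5.22 with limma's adjusted p at 0.0578. Over the other 7 alternatives for Cd209a the adjusted p was at most 0.0235. The lowest, 4.2e-12, came from a block on replicate number, which leaves 1 degree of freedom among samples. The labels do not say that replicate numbers pair the libraries. Cd209a was not analysed here in the forebrain and Csf1 tables.

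Cd209a was not the only dendritic cell gene that was higher in both LacZ libraries. Of 25 dendritic cell genes, a list drawn up after Cd209a was seen, 10 had a row, 4 of them through the LacZ libraries alone: Cd209a, Mgl2, Napsa and Itgb7. Mgl2, the macrophage galactose lectin CD301b, was at 39.5 and 25.6 in LacZ and at 3.44 and 3.43 in wild type. Napsa, which encodes the aspartic protease napsin A, was at 15.3 and 24.2 in LacZ and at 1.77 and 2.32 in wild type. The integrin subunit gene Itgb7 was at 30.4 and 31.3 in LacZ and at 1.77 and 13.4 in wild type. Their log2 changes were 2.89, 2.74 and 2.33, none past the test (adjusted p = 0.997 for each). Having met the floor through LacZ alone, each of these genes had a wild-type library at or below it by definition. Each is listed only because both LacZ libraries exceeded the floor. Without LacZ 2, with LacZ 1 as the lone mutant, the log2 change was 3.19 for Mgl2 and 2.42 for Napsa. The log2 change of Itgb7 was 1.15 without wild type 1 and 3.52 without wild type 2. The other 6 genes with a row had log2 changes from -0.04 to 0.46, among them Zbtb46, a transcription factor of conventional dendritic cells, at 15.3 and 28.4 in LacZ in LacZ and 10.96 and 20.1 in wild type.

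Genes of blood monocytes gave mixed values. Of 17 such genes 4 had a row, and Ccr2 and Chil3 met the floor through LacZ alone. By that definition each had a wild-type library at or below the floor, and each is listed only because both LacZ libraries exceeded it. Ccr2, the chemokine receptor that brings monocytes into tissue, was at 86.6 and 147.5 in LacZ and at 7.62 and 69.9 in wild type. Chil3, a chitinase-like protein of inflammatory monocytes, was at 18.3 and 12.9 in LacZ and at 0.1 and 5.64 in wild type, where 0.1 stands for no read. The intermediate filament gene Vim, named after its value was seen, was at 79.0 and 59.6 in LacZ and at 15.1 and 28.9 in wild type. The log2 changes were 2.21 for Ccr2, 2.60 for Chil3 and 1.66 for Vim, with limma's adjusted p at 0.997 throughout. Ccr2 turned on wild type 1: its log2 change was 0.68 without that library, and 3.73 without wild type 2. The log2 change of Vim was 1.22 without wild type 1 and 2.11 without wild type 2. The other two monocyte genes overlapped. Itga4, an integrin subunit gene, was at 50.2 and 290.6 in LacZ and at 157.1 and 227.3 in wild type, with a log2 change of -0.64, and the fibronectin gene Fn1 was at 44.1 and 52.5 in LacZ and at 13.5 and 51.1 in wild type. The summed level of the 4 genes was 199 and 503 in LacZ and 178 and 354 in wild type. Of 28 genes shared by phagocytes of blood and borders, a list drawn up after values were seen, 17 had a row, 7 of them through LacZ alone, and 3 were negative. Among the genes of that list, Ly6c2, Plac8 and Vcan were not analysed here. In a bulk sample of sorted cells, a change in the number of cells of a type cannot be told apart from a change in RNA per cell.

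**Figure D2:**
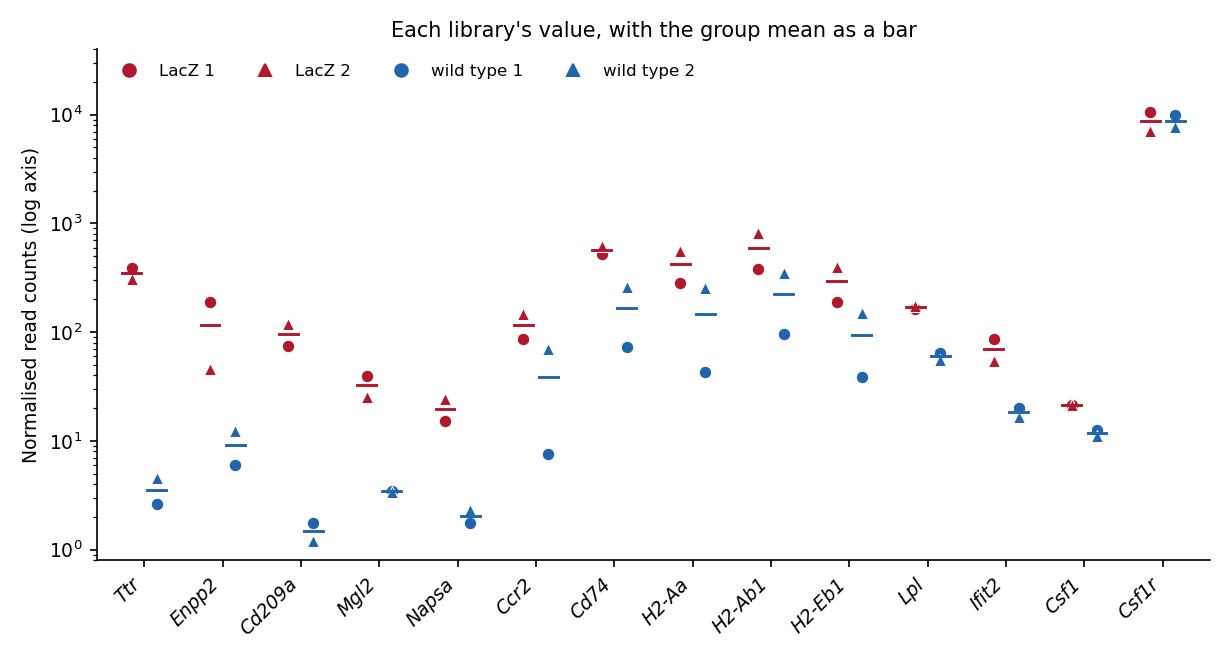
Normalised read counts of 14 genes on a log axis, with LacZ in red and wild type in blue, circles for replicate 1, triangles for replicate 2 and bars for group means (n = 2 each). Ttr, Cd209a, Mgl2 and Napsa are separated widely between genotypes, while for Ccr2 and the MHC class II genes wild type 2 lies much closer to the LacZ libraries than wild type 1 does.

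MHC class II molecules present peptides to CD4 T cells. They are scarce on resting microglia and plentiful on dendritic cells and activated macrophages. Cd74, the invariant chain that guides class II molecules to the endosome, was at 523.4 and 622.2 in LacZ and at 73.6 and 259.5 in wild type. H2-Aa, the alpha chain of I-A, was at 285.3 and 562.7 in LacZ and at 42.7 and 253.9 in wild type. H2-Ab1, its beta chain, was at 383.8 and 816.4 in LacZ and at 96.1 and 353.7 in wild type. H2-Eb1, the beta chain of I-E, was at 189.7 and 395.5 in LacZ and at 38.5 and 148.6 in wild type. The order of the libraries was the same for the 3 H2 genes: LacZ 2 was highest, LacZ 1 and wild type 2 followed at similar levels, and wild type 1 was lowest.

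The log2 changes were 2.04 ± 0.47 for Cd74, 1.93 ± 0.64 for H2-Aa, 1.84 ± 0.54 for H2-Eb1 and 1.60 ± 0.53 for H2-Ab1, and none passed the test (adjusted p = 0.997 for each). Wild type 1 set much of these values: without it the log2 changes were 1.13 for Cd74, 0.66 for H2-Aa, 0.88 for H2-Eb1 and 0.66 for H2-Ab1. Without wild type 2, with wild type 1 as the lone control, the log2 change was 2.94 for Cd74 and 3.20 for H2-Aa. Without LacZ 2 it was 1.91 for Cd74 and 1.44 for H2-Aa. With a block on replicate number, limma's adjusted p was 8.8e-11 for Cd74 and 6.9e-09 for H2-Aa. The labels do not say that replicate numbers pair the libraries, and this block leaves 1 degree of freedom among samples. With scaling to library totals the adjusted p was 0.995 for both genes.

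Other genes of class II presentation had smaller differences or lay the other way. Of 15 such genes 13 had a row, 10 positive and 3 negative. Besides the 4 genes above, H2-DMb1 lay wholly above wild type, at 35.0 and 32.7 in LacZ and 26.8 and 31.1 in wild type. H2-DMa, which helps to load peptides, was at 270.1 and 174.4 in LacZ and at 205.5 and 184.1 in wild type. Ctss, the cathepsin that trims the invariant chain, was at 4965 and 3998 in LacZ and at 5082 and 4353 in wild type. Ciita, the transactivator that switches class II genes on, was at 1.62 and 12.9 in LacZ and at 13.5 and 14.5 in wild type, and it met the floor of the table through wild type alone. The median log2 change of the 13 genes was 0.16, beside 0.02 over all genes.

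The genes H2-Aa, H2-Ab1 and H2-Eb1 lie side by side on chromosome 17, from 34257689 to 34316674 on GRCm38, and their promoters share a regulatory module that is known for driving class II genes together. Because the H2 genes ranked the 4 libraries alike, the promoters of the 2 genes matched in RefSeq (GRCm38.p6) are shown, 120 bases each up to the base before the start, 5′ to 3′ on the gene's strand, with the Y-box motif in capitals. The window is chr17:34287824-34287943 on the minus strand for H2-Aa and chr17:34305747-34305866 on the plus strand for H2-Eb1.
H2-Aa: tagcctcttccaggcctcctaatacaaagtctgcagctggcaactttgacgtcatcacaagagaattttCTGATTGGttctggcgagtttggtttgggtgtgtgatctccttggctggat
H2-Eb1: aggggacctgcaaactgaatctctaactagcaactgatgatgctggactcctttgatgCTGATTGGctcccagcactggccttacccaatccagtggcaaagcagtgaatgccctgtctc
The motif searched was CTGATTGG on either strand (CCAATCAG on the other), a form of the Y-box that the factor NF-Y binds. Its first base lies 51 bases before the start of H2-Aa and 62 bases before that of H2-Eb1. The same letters occur in 934 of 32851 promoter windows of that length (2.84%), so a match describes the sequence and shows no binding in these cells.

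In the Csf1 cerebellum table the class II genes varied as widely within a genotype. H2-Aa was at 229.3, 195.7 and 91.3 in NesCreCsf1fl/fl libraries and at 13.8, 275.8 and 211.7 in Csf1fl/fl controls. H2-Ab1 was at 386.9, 390.3 and 182.6 in NesCreCsf1fl/fl and at 49.0, 428.7 and 427.4 in Csf1fl/fl. A single control library was low in both genes, as wild type 1 was in the Il34 table. In forebrain microglia Cd74 was at 16.7 to 63.6 in LacZ and at 13.3 to 24.4 in wild type, and the 3 H2 genes were not analysed here.

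**Figure D3:**
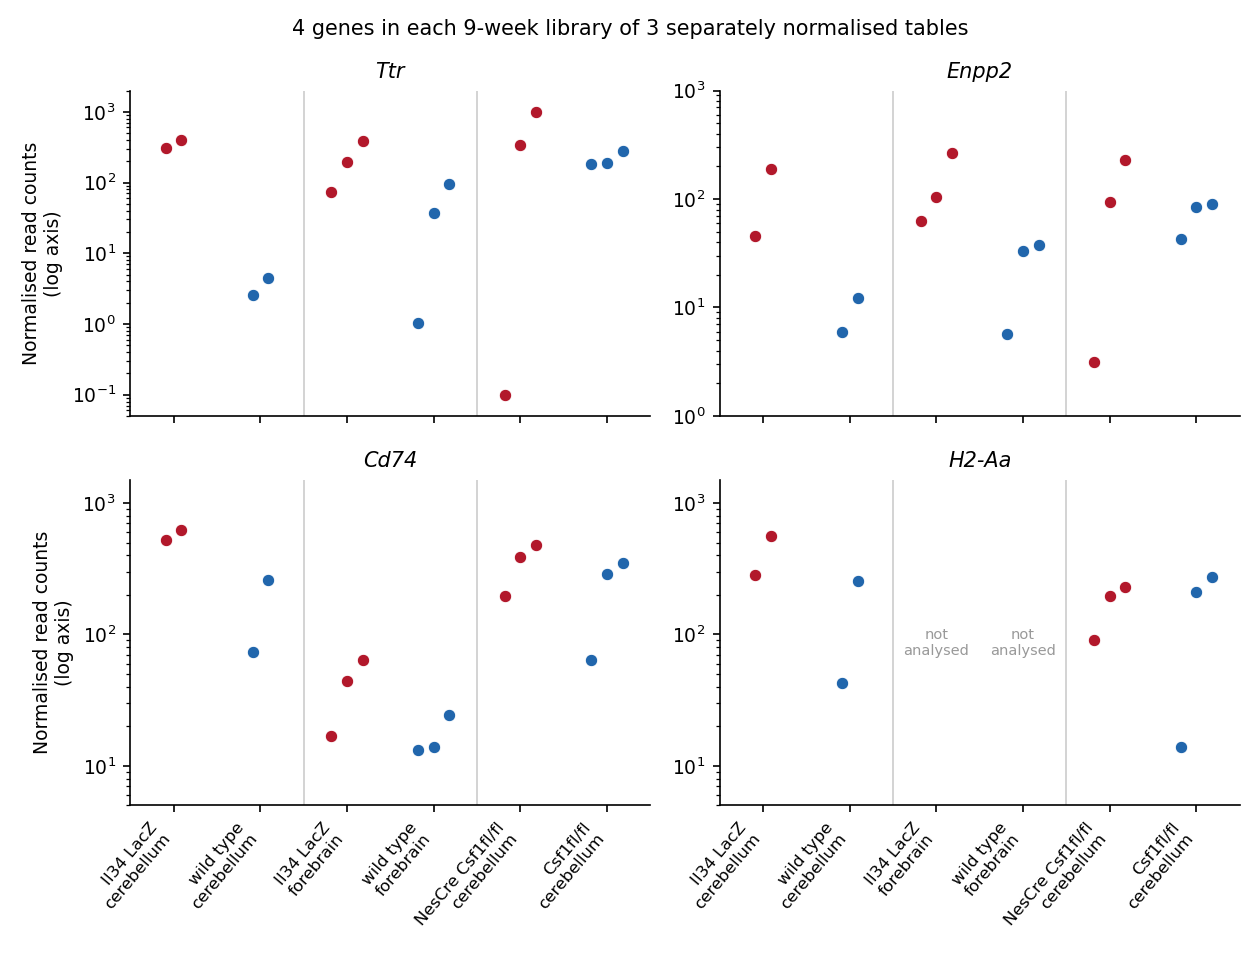
Normalised read counts on log axes of Ttr, Enpp2, Cd74 and H2-Aa in each 9-week library, with mutants in red left of their controls in blue and vertical lines between the 3 separately normalised tables. Ttr runs from 0.1 to 977.9 among the NesCreCsf1fl/fl libraries, and H2-Aa from 13.8 to 275.8 among the Csf1fl/fl controls.

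Lpl, which encodes lipoprotein lipase and is a leading gene of disease-associated microglia, differed between the genotypes with little spread inside each. It was at 163.9 and 174.4 in LacZ and at 64.4 and 55.5 in wild type (chromosome 8, 68880491 to 68907448, plus strand). Neither LacZ library came near the wild-type libraries, and the 2 libraries of each genotype were close to each other. The log2 change was 1.48 ± 0.29, with limma's adjusted p at 0.795, and without any single cerebellar library it lay between 1.38 and 1.59. Lpl passed with a block on replicate number (limma's adjusted p = 0.00218), which leaves 1 degree of freedom among samples. It did not pass with a mean of 50 or more (adjusted p = 0.296) or with scaling to library totals (adjusted p = 0.995). In forebrain microglia Lpl was at 52.1, 59.8 and 52.2 in LacZ and at 26.1, 22.7 and 23.4 in wild type, again without overlap, a log2 change of 1.15 ± 0.27 that did not pass either (adjusted p = 0.0771). The difference between the regions was 0.33 ± 0.35 (adjusted p = 0.987). In the Csf1 cerebellum Lpl was at 237.0, 373.0 and 314.4 in NesCreCsf1fl/fl and at 198.3, 207.4 and 364.1 in Csf1fl/fl, where the groups overlapped.

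The rest of the disease-associated microglia list did not move together. Of 33 genes 29 had a row, none passed the test, 15 were positive and 14 negative, and the median log2 change was 0.00. Both LacZ libraries lay above wild type in 6 of the 29 (17.7% over all genes) and below it in 1 (12.6% over all genes), so the share above was near that of the table. Besides Lpl those above were the galectin gene Lgals3 (38.0 and 36.9 in LacZ, 9.29 and 25.6 in wild type), Csf1, and, named after their values were seen, the lectin receptor gene Clec7a, the integrin gene Itgax and the chemokine gene Ccl6. Clec7a, which encodes dectin-1, was at 112.3 and 148.9 in LacZ and at 92.0 and 89.9 in wild type. The adhesion molecule gene Cadm1 was the one below, at 138.1 and 140.4 in LacZ and 185.5 and 166.4 in wild type. Apoe, the lipid carrier apolipoprotein E, was at 1080.0 and 1039 in LacZ and at 786 and 1204 in wild type, with the wild-type libraries on either side of the LacZ libraries. Ctsd, the lysosomal protease cathepsin D, was at 8617 and 6707 in LacZ and at 8289 and 7431 in wild type. The members Spp1, Itgax and Lgals3 met the floor through LacZ alone and Igf1 through wild type alone. Spp1, osteopontin, was at 68.4 and 24.2 in LacZ and at 0.94 and 44.4 in wild type, which overlap.

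Type I interferon induces a large set of antiviral genes in microglia. Of 36 such genes 27 had a row, none passed, and 9 lay wholly above wild type in LacZ (17.7% over all genes), while 4 of the 27 met the floor through LacZ alone. The median log2 change was 0.16. Ifit2, an interferon-induced RNA-binding protein, was at 86.6 and 54.0 in LacZ and at 20.1 and 16.7 in wild type. Its log2 change was 1.84 ± 0.42 (limma's adjusted p = 0.997). The log2 change was 1.51 without LacZ 1 and 2.18 without LacZ 2. In forebrain microglia Ifit2 was at 16.7, 12.6 and 27.1 in LacZ and at 9.69, 10.5 and 10.4 in wild type, also without overlap. Ifi204, a DNA sensor of the same family of induced genes, was at 39.5 and 22.8 in LacZ and at 14.3 and 7.86 in wild type. It met the floor through LacZ alone.

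The receptor and its remaining ligand are the genes on which the design turns. Csf1r was at 10558 and 7077 in LacZ and at 9888 and 7773 in wild type. Replicate 1 was higher than replicate 2 in both genotypes and the groups overlapped, with a log2 change of -0.02 ± 0.61 (adjusted p = 1.00). It was -0.31 without LacZ 1 and 0.27 without LacZ 2, so its sign turned on single libraries. Csf1, the ligand that is left, was at 21.3 and 21.4 in LacZ and at 12.6 and 11.2 in wild type. Both LacZ libraries were above both wild-type libraries, on 14 and 15 reads in LacZ and 15 and 10 reads in wild type. The log2 change was 0.79 ± 0.54 (adjusted p = 0.997), and the ratio of summed reads was 1.78 (95% exact interval 1.01 to 3.18). Forebrain microglia gave 17.8, 25.1 and 25.2 in LacZ and 12.4, 12.3 and 5.70 in wild type, and the difference between the regions was -0.35 ± 0.61.

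Trem2, the lipid receptor that shares the adaptor Tyrobp (DAP12) with CSF1R signalling, was at 1041 and 619 in LacZ and at 955 and 809 in wild type. Tyrobp was at 453.6 and 294.9 in LacZ and at 411.8 and 348.2 in wild type. For both genes the LacZ libraries lay on either side of the wild-type libraries. Il34, the proteoglycan receptor gene Ptprz1 and the syndecan gene Sdc1 were not analysed here in this table. Of 31 genes that act below CSF1R, 28 had a row, 15 were positive and 13 negative, none passed, and the median was 0.01. Grb2, the adaptor that links CSF1R to RAS, was at 85.0 and 73.8 in LacZ and at 53.5 and 41.1 in wild type, a log2 change of 0.74 ± 0.33 (adjusted p = 0.997). The kinase gene Lyn was at 886 and 609 in LacZ and at 778 and 767 in wild type. Dusp6, a phosphatase that ERK signalling induces, was at 763 and 432 in LacZ and at 542 and 653 in wild type.

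The homeostatic program of microglia did not separate the genotypes. Of 35 genes 34 had a row, all above the floor in both groups. None passed, 11 were positive and 23 negative, and the median log2 change was -0.08. The LacZ libraries lay wholly above wild type in 1 gene and wholly below in 1 gene, beside 17.7% and 12.6% of all genes. The members ranged from -0.44 for the Fc receptor-like gene Fcrls, at 1207 and 737 in LacZ and 1493 and 1097 in wild type, to 0.31 for the nuclear corepressor gene Nrip1. Tmem119, a membrane protein that marks microglia, was at 2111 and 1380.4 in LacZ and at 1982 and 2003 in wild type. Cx3cr1, the fractalkine receptor, was at 4872 and 3476 in LacZ and at 4409.9 and 3943 in wild type. The summed level of the 34 genes was 69915 and 47953 in LacZ and 65843 and 54654 in wild type, so that LacZ 1 was highest and LacZ 2 lowest. The median member differed by 0.47 between LacZ 1 and LacZ 2 and by 0.22 between the wild-type libraries.

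The transcription factors that shape microglia likewise held no gene past the test. Of 26 genes 24 had a row, 12 positive and 12 negative. Spi1, which encodes PU.1, was at 229.1 and 154.6 in LacZ and at 183.8 and 173.0 in wild type. Sall1, a factor that keeps microglial identity, was at 555 and 407 in LacZ and at 414 and 338 in wild type. Mitf, a driver of lysosomal genes, was at 22.9 and 25.6 in LacZ and at 36.0 and 46.7 in wild type, and Tal1, a factor of blood cell development, was at 6.17 and 8.60 in LacZ and at 18.5 and 16.7 in wild type. The log2 changes were -0.74 for Mitf and -1.16 for Tal1, which did not pass, and Tal1 met the floor of the table through wild type alone.

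Complement, lysosomal and clearance genes had medians close to 0. The 7 complement genes with a row had a median of -0.07. C1qb was at 3883 and 2541 in LacZ and at 3585 and 2768 in wild type. The 39 lysosomal genes had a median of -0.03, with 6 wholly above and 3 wholly below wild type (17.7% and 12.6% over all genes). The 26 clearance receptors had a median of -0.08. C5ar1, the receptor for complement C5a, was at 82.0 and 109.2 in LacZ and at 146.2 and 124.2 in wild type, and Cd300a, an inhibitory lipid receptor, was at 145.7 and 177.2 in LacZ and at 201.3 and 229.6 in wild type. Both lay wholly below wild type, with log2 changes of -0.51 and -0.42 that did not pass.

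The metabolic, proliferation and stress lists also held no gene past the test. Median log2 changes were 0.07 for lipid efflux (15 genes), 0.16 for cholesterol synthesis (15 genes), 0.03 for glycolysis (19 genes), 0.07 for oxidative phosphorylation (31 genes), 0.07 for p53 targets (11 genes), -0.02 for survival and apoptosis (21 genes), 0.10 for cytokines (24 genes) and 0.16 for transforming growth factor beta signalling (16 genes). For proliferation the median was -0.13 over 20 genes. The cyclin gene Ccnb1 was at 0.1 and 17.1 in LacZ and at 11.8 and 26.7 in wild type, which overlap. Mcm4, a subunit of the replicative helicase, was at 10.7 and 4.35 in LacZ and at 19.3 and 27.8 in wild type. Both genes met the floor of the table through wild type alone. The immediate early and heat shock genes, which respond to the handling of cells, had a median of -0.06 over 26 genes. Jun was at 2636 and 1227 in LacZ and at 1595 and 1559 in wild type. The 74 ribosomal protein genes had a median of 0.15, of which 51 were positive, 25 lay wholly above wild type and 8 wholly below, beside 51.6%, 17.7% and 12.6% of all genes. In 19 of the 21 lists of microglial programs and RNA quality, the median difference between genotypes was smaller in size than the median difference between LacZ 1 and LacZ 2. The exceptions were proliferation and the ribosomal protein genes. Single libraries vary more than means of 2, and LacZ 1 stood apart, so this count is no test. Beside the wild-type pair the order varied: interferon genes had 0.16 between genotypes and 0.02 between wild-type libraries. Homeostatic genes had -0.08 and 0.22.

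**Figure D4:**
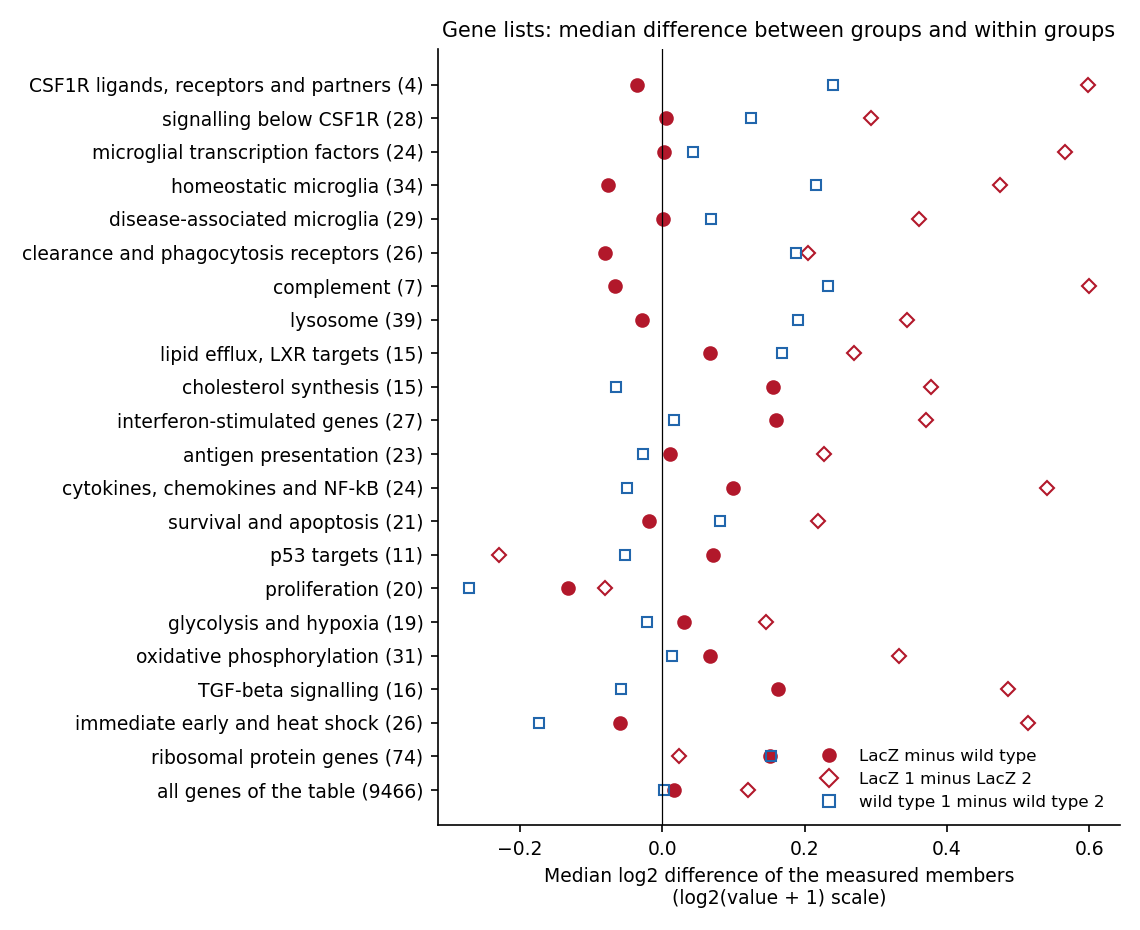
Median log2 difference of the measured members of 21 gene lists and of all 9466 genes (members measured in brackets), for LacZ minus wild type (filled circles), LacZ 1 minus LacZ 2 (open diamonds) and wild type 1 minus wild type 2 (open squares). The homeostatic list sits at -0.08 between genotypes and at 0.47 between the LacZ libraries.

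Among genes with a mean of 50 or more whose groups did not overlap, those of smallest p in each direction were read beside the called genes. In the higher direction they were, besides Lpl, Enpp2 and the class II genes, Tex10, Crybg3, Dpy19l1 and Kdm1b. Tex10, which encodes a protein of ribosome maturation, was at 97.2 and 86.5 in LacZ and at 41.0 and 40.0 in wild type. Kdm1b, a histone H3 lysine demethylase gene, was at 77.5 and 73.8 in LacZ and at 37.7 and 36.7 in wild type. In the lower direction the 12 genes were Akr1b10, Pmpca, Eml4, Stxbp3a, St13, Ercc5, Pck2, Lpin1, Tm9sf4, Card9, Ypel5 and Orai2, with log2 changes from -1.04 to -0.66. Akr1b10, an aldo-keto reductase gene, was at 44.1 and 31.3 in LacZ and at 74.4 and 73.3 in wild type. Pmpca, a subunit of the mitochondrial processing peptidase, was at 60.8 and 79.5 in LacZ and at 129.5 and 115.4 in wild type. Card9, the adaptor that carries signals from dectin-1, was at 69.9 and 48.3 in LacZ and at 136.2 and 79.9 in wild type. For these genes limma's adjusted p was 0.997, apart from Lpl and Enpp2 at 0.795.

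Few markers of non-microglial cells had a row in the table. None of the 7 red blood cell genes had a row, 3 of 23 lymphocyte genes and 2 of 14 neutrophil genes did, and the defining T cell genes Cd3d, Cd3e and Trac were not analysed here. Of 18 genes of border-associated macrophages 9 had a row, with summed levels of 941 and 783 in LacZ and 848 and 799 in wild type. Mrc1, the mannose receptor of these macrophages, was at 38.0 and 55.4 in LacZ and at 52.7 and 35.6 in wild type, which overlap. The 9 genes went both ways, with 3 wholly above wild type and 2 wholly below (17.7% and 12.6% over all genes). The scavenger receptor gene Cd163 was at 68.4 and 18.5 in LacZ and at 16.8 and 11.2 in wild type, and F13a1, a coagulation factor gene that met the floor through LacZ alone, was at 45.6 and 35.5 in LacZ and at 5.95 and 33.4 in wild type. Pf4, a chemokine gene that met it through wild type alone, was at 4.65 and 4.35 in LacZ and at 16.8 and 11.2 in wild type. Of 23 endothelial genes 11 had a row, 4 of them through LacZ alone and 3 through wild type alone, and their summed level was 778 in LacZ 1 and 374 in LacZ 2 against 358 and 413 in wild type. The 11 endothelial genes had log2 changes from -1.03 to 2.20, with 7 positive and 4 negative. Those that met the floor through wild type alone were Pecam1, Kdr and Rgs5. Slco1a4, an organic anion transporter of the blood-brain barrier, met it through LacZ alone. This gene was at 21.3 and 21.4 in LacZ and at 5.95 and 5.64 in wild type. Cldn5, the tight junction protein claudin-5, was at 94.1 in LacZ 1 and 11.4 in LacZ 2 against 21.0 and 13.4 in wild type. Oligodendrocyte genes (7 of 18) summed to 2229 and 2769.8 in LacZ and 2131 and 1812 in wild type, astrocyte genes (6 of 19) to 165.9 and 278.4 in LacZ and 183.5 and 204.6 in wild type, and neuronal genes (8 of 29) to 599.9 and 515 in LacZ and 539 and 546 in wild type. None of these lists held a called gene, and their part in the results above was not tested.

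In forebrain microglia the loss of Il34 called 15 of 8622 genes (0.174%), 10 higher (0.116%) and 5 lower (0.058%), and 7.38% had an unadjusted p under 0.05. Of the 15 genes, 13 had a row in the cerebellar table. None of the 13 passed there, and 11 had the same sign in both regions. The share of same sign over all genes was not computed. The largest rises among the 15 were Itm2a (3.66 ± 0.46), Slco1c1 (3.00 ± 0.50), Cldn5 (2.68 ± 0.46) and Enpp2 (2.55 ± 0.47). Itm2a and Cldn5 are on the endothelial list and Enpp2 is on the choroid plexus list. The cerebellar log2 changes were 1.52 for Itm2a, 0.95 for Cldn5 and 3.29 for Enpp2, and Slco1c1 had no row there. The part of such cells in the forebrain result was not tested. The forebrain count depended on single libraries and was 6 without LacZ 2, 6 without LacZ 3, 28, 7 and 46 without wild type 1, 2 and 3. Ptchd1, a patched-domain membrane protein gene, was at 198.8 and 184.3 in LacZ and at 111.2 and 147.5 in wild type in the cerebellum, without overlap. Its log2 change was 0.58 ± 0.28 in the cerebellum and 1.71 ± 0.21 in the forebrain, a difference of -1.14 ± 0.31 (adjusted p = 0.897). Apoe had a log2 change of 0.12 ± 0.34 in the cerebellum, which did not pass, and rose by 1.27 ± 0.16 in the forebrain. In the forebrain it was at 1004, 1006 and 1034 in LacZ and at 303, 423 and 579 in wild type. The difference for Apoe was -1.15 ± 0.33 (adjusted p = 0.897). Upk1b, a uroplakin gene of homeostatic microglia, was at 15.3 and 17.1 in LacZ and at 20.1 and 22.3 in wild type in the cerebellum, with log2 changes of -0.37 ± 0.51 there and -1.41 ± 0.21 in the forebrain. The fructose transporter gene Slc2a5 had log2 changes of -0.17 in the cerebellum and -0.74 in the forebrain. C3ar1, the receptor for complement C3a, and Vapa, a tether of the endoplasmic reticulum, had opposite signs in the 2 regions. Their log2 changes were -0.07 and 0.05 in the cerebellum and 0.66 and -1.16 in the forebrain.

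**Figure D5:**
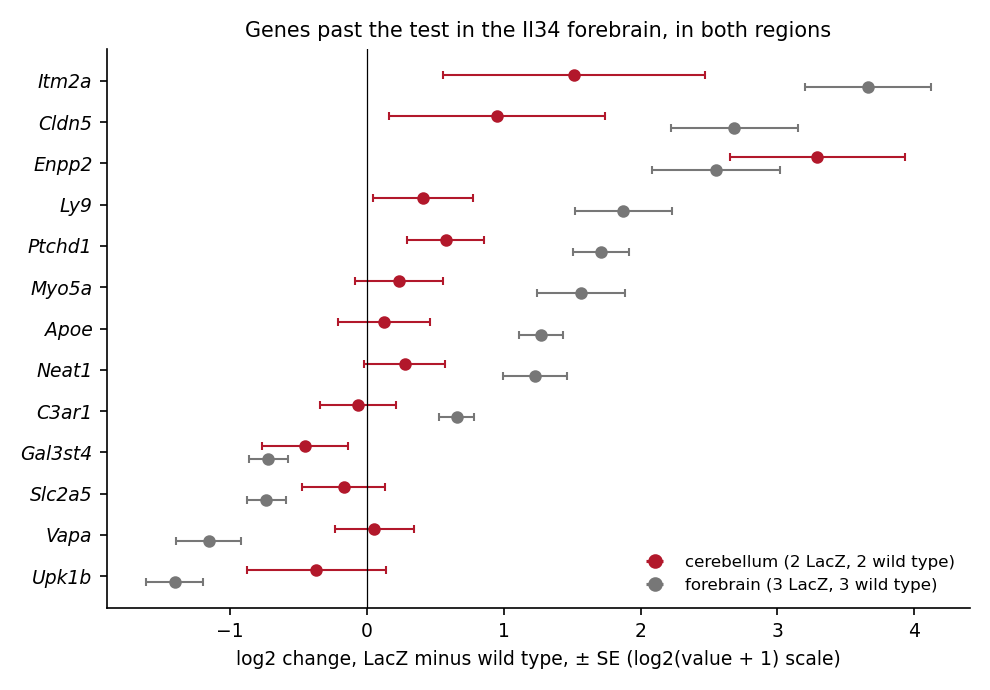
Log2 change (LacZ minus wild type) with SE for the 13 genes that passed the test in the Il34 forebrain and have a row in the cerebellar table, cerebellum in red above forebrain in grey. Apoe lies at 0.12 in the cerebellum and 1.27 in the forebrain, while Enpp2 lies at 3.29 and 2.55.

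A joint fit of the 10 Il34 libraries tested whether the effect of Il34 loss differed between regions. No gene of 8367 passed with limma, 419 (5.01%) had an unadjusted p under 0.05, and the smallest adjusted p was 0.897. Without the cerebellar library LacZ 2, 62 genes passed. Smallest in p were Kdm1b, Rac1, Fam49b, Dpy19l1 and Adam10 in the direction of a more positive change in the cerebellum, and Cadm1, Ptchd1, C5ar1, Apoe and Ypel5 in the other. Rac1, a GTPase of the actin skeleton, was at 540.1 and 388 in LacZ and at 263 and 319 in wild type in the cerebellum, and at 186, 159 and 227 in LacZ and 403, 352 and 222 in wild type in the forebrain. Kdm1b had log2 changes of 1.00 in the cerebellum and -0.67 in the forebrain, where it was at 42.7, 43.4 and 48.4 in LacZ and 68.6, 66.1 and 82.2 in wild type. Neither difference passed. Whether cerebellar and forebrain libraries came from the same mice is not stated in the labels.

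Loss of the other ligand, Csf1, was compared in the same region and at the same age. Of its 9670 genes 0 passed with limma and 408 (4.22%) had an unadjusted p under 0.05, and 3 passed without Csf1fl/fl replicate 2. The difference between the effects of Il34 loss and Csf1 loss passed in 0 of 8743 genes, with 465 (5.32%) at an unadjusted p under 0.05 and the smallest adjusted p at 0.907. It passed in 2 genes without LacZ 1 and in 1 without NesCreCsf1fl/fl replicate 3. Mrps30, a mitochondrial ribosomal protein gene, was at 45.6 and 51.1 in LacZ and at 20.1 and 14.5 in wild type, and the difference of its log2 changes was 1.68 ± 0.40. Ubr7, which encodes a ubiquitin ligase, was at 53.2 and 44.0 in LacZ and at 14.3 and 12.3 in wild type, with a difference of 1.61 ± 0.42. Dolk, dolichol kinase, was at 16.8 and 10.02 in LacZ and at 39.3 and 26.7 in wild type, with a difference of -1.68 ± 0.43. For Ttr the difference was 7.86 ± 2.33 and for Ccr2 2.83 ± 0.97, neither past the test (adjusted p = 0.907 for each). The size of the Ttr difference turned on NesCreCsf1fl/fl replicate 3, which held no Ttr read. Replicates 1 and 4 of that genotype, at 339.1 and 977.9, lay above all Csf1fl/fl controls (182.9 to 276.5).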

How the data were processed

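RNA of sorted microglia was sequenced (Nextera XT libraries, NextSeq-500, per the labels' protocols). Reads were aligned with STAR 2.5.3 to mm10 and counted with featureCounts, per the submitters' processing notes. How strand was set, which annotation was counted and how values were normalised is not given in the sources used here. Each deposited table gives a signal per gene: in every library used, 100% of values, less a constant of 0.1, were whole multiples of 1 read within 0.01 reads, and 1 factor per library set the scale. No filter was added to the authors' own.

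Genotypes were compared within a table with limma 3.58.1 in R 4.3.3 on log2(value + 1), as a two-sided test. P-values were adjusted by Benjamini-Hochberg over the whole table, with a threshold of 0.05. This scale understates changes of low genes. Differences between 2 effects came from 1 fit of 4 group means. The pipeline was tested on simulated data. Ratios of reads carry exact binomial intervals, which cover counting error only. In limma each gene's variance was drawn towards a trend with mean level over all genes. The SE and p-value of a gene therefore rest on more than the spread between its own libraries. With 2 libraries a group, the p-values measure no spread beyond that of the libraries in the fit.

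The genes and lists were chosen with earlier results of these data known, and 4 lists (class II presentation, dendritic cells, choroid plexus, shared phagocyte genes) were added after values were seen. The text names the genes of the CSF1R list, those past the test, 12 per direction of smallest p with a mean of 50 or more and no overlap, the most abundant and smallest-p members of each list, and 5 per direction for differences. Other named genes were chosen after their values were seen. Coordinates are GENCODE vM21 (GRCm38, the assembly of mm10), which holds 95.4% of the symbols, and 17 names turned into dates were left out of joins. Alternatives were quantile normalization, a pseudocount of 0.1, a mean of 50 or more, a block on replicate number, each library left out and scaling to library totals, the last chosen after seeing the data.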

Additional observations from a re-analysis of the deposited data

How the results depend on the processing

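Ttr stayed past the test under each alternative run, with log2 changes from 5.97 to 6.62. Cd209a did so except under scaling to library totals (adjusted p = 0.0578), and its mean falls below the stricter filter. The count of 2 genes became 1 with the filter at a mean of 50, 1 with library totals and 10 with the replicate block, where Cd74, H2-Aa, H2-Eb1, H2-Ab1, Enpp2, Ccr2, Lpl and Ifit2 were added. Leaving out each library gave 2 to 344 genes. It was 5 without wild type 2, 5 without LacZ 1, and 344 without LacZ 2, of which 306 were lower and the median of all genes was 0.10. For the Il34 forebrain the count of 15 became 8 with that filter, 79 with the replicate block and 6 to 46 without 1 library (46 without wild type 3, 28 without wild type 1, 7 without wild type 2, 6 without LacZ 2 or LacZ 3). The Csf1 cerebellum count of 0 became 35 with the replicate block and 0 to 3 without 1 library (3 without Csf1fl/fl 2). The regional difference gave 0 to 62 calls without 1 library (62 without LacZ 2 of the cerebellum), and the difference between ligands 0 to 2 (2 without LacZ 1, 1 without NesCreCsf1fl/fl 3). The labels do not say that replicate numbers pair the cerebellar libraries. The deviations of same-numbered libraries correlated at 0.199 over genes, and with 2 pairs a block leaves 1 degree of freedom among samples. Signs turned for Csf1r, which ranged from -0.31 to 0.27 without 1 library (0.15 without wild type 1, 0.27 without LacZ 2), for Trem2 from -0.50 to 0.24 (0.24 without LacZ 2), and for Tyrobp from -0.36 to 0.26 (0.07 without wild type 1, 0.26 without LacZ 2). The causes were not tested. The planned edgeR and DESeq2 fits were not run, since the deposited values are normalised and carry an added constant. In a fit that leaves out a cerebellar library the lone sample is assumed to vary like the other group. Depths of 508182 to 901522 reads per library limit what genes near the floor of the table can show.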

Other observations

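Chemoreceptor genes, a family expressed in the sensory epithelia of the nose, separated the LacZ 1 library from the rest. The table holds 10 olfactory and vomeronasal receptor genes, chosen after their values were seen, and their summed level was 184.5 and 1231 in LacZ and 699.9 and 1016 in wild type. Vmn1r58, a vomeronasal receptor gene, was at 69.9 and 457.8 in LacZ and at 254.8 and 374.8 in wild type. Olfr613, an olfactory receptor gene, was at 36.5 and 282.1 in LacZ and at 155.4 and 250.6 in wild type. In LacZ 1, 212 genes were more than 4-fold below the lowest other library, compared with 24 in LacZ 2, 19 in wild type 1 and 17 in wild type 2. The homeostatic genes of microglia ran the other way, with the highest sum in LacZ 1. In the 6 forebrain libraries 9 such receptor genes summed to 494.6 to 737.0 in LacZ and to 383.4 to 1029.8 in wild type. No cause was tested.

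Zfp879, a zinc-finger gene, was the only gene without a read in both LacZ libraries. It had 16 and 9 reads in wild type, or 13.5 and 10.1 normalised read counts, just past the floor of the table, and its log2 change did not pass the test (adjusted p = 0.997). The log2 change of Zfp879 was -3.52. It was the same without LacZ 1, with LacZ 2 as the lone mutant, because neither LacZ library held a read.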
